A study of Mus musculus with 1504 samples.

Results

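The genes described here encode the subunits of the mitochondrial respiratory chain and of ATP synthase that are carried in the nucleus. They were taken by symbol from the deposited read count matrix of single cells from mouse lung: every row named as an Nduf subunit, an Sdh subunit, a Uqcr gene, a Cox4 to Cox8 gene or an Atp5 gene, without the assembly factors, pseudogenes, Cox4i2 and Ndufa4l2. This gave 82 of 21947 genes, with 36 in complex I, 4 in complex II, 8 in complex III, 17 in complex IV and 17 in complex V. The rule uses symbols alone. Atp5s and Atp5sl carry the Atp5 name without being classical subunits of ATP synthase. Ndufa4 is counted in complex I by its name, although its protein is known as a subunit of complex IV.

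Oxidative phosphorylation works as a relay in the inner mitochondrial membrane. Complex I takes electrons from NADH and complex II takes them from succinate, complex III passes them to cytochrome c and complex IV delivers them to oxygen, while complexes I, III and IV pump protons that drive ATP synthase, here called complex V. Most subunits are made from nuclear genes and imported, and the remaining core subunits come from mitochondrial DNA. In vessels, endothelial cells are known for a strong reliance on glycolysis, contractile smooth muscle for a steady demand for ATP, and several complex IV subunits for having forms restricted to heart, muscle, testis or lung.

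The series profiled single cells of lung vessels with SMART-seq2, a plate method that copies whole transcripts and has no molecular identifiers. Lungs of adult C57BL/6 mice, 12 to 15 weeks old by the sample labels and 10 to 19 weeks old by the series' design text, were dissociated and sorted by fluorescence into 384-well plates. The mice carried Cldn5(BAC)-eGFP, a bacterial artificial chromosome transgene that marks endothelium (769 cells), Pdgfrb(BAC)-eGFP, which marks mural cells and fibroblasts (374 cells), or Pdgfrb(BAC)-eGFP together with NG2-dsRed, a reporter of the gene Cspg4 (361 cells). None of the groups carried a disease model or a treatment, and the labels name no animal, plate or date, so each population is 1 sample and no test between populations was possible. The Cldn5-eGFP cells fall into column sets EC1, EC2 and EC3 (243, 275 and 251 cells), and the other cells into Mural1, Mural2 and Mural3 (128, 233 and 374 cells), whose names show no reporter. All 95% intervals given below cover counting error only.

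The sequences before 4 of the members are shown because the comparisons below turn on them: Ndufa4 had the highest fold of the members called between cell classes, Cox6b2 was the member called between column sets, Atp5b had the most reads, and Cox6a1 held the word of the regulator NRF1. They are RefSeq promoters of build GRCm38.p6, read 5′ to 3′ on the gene's strand and ending before the start of the gene model. Capitals mark the searched words. Ndufa4 lies at chr6:11907498-11907700 (minus strand), Cox6b2 at chr7:4753095-4753344 (minus strand), Atp5b at chr10:128083057-128083272 (plus strand) and Cox6a1 at chr5:115348982-115349208 (minus strand).
Ndufa4: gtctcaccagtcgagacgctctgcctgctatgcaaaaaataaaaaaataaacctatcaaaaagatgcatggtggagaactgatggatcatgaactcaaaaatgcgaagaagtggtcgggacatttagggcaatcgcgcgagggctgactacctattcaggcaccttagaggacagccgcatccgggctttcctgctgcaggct
Cox6b2: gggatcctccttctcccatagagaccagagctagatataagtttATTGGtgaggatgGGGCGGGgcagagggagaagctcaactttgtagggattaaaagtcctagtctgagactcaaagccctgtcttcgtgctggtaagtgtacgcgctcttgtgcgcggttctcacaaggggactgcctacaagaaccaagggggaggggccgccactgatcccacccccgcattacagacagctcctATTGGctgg
Atp5b: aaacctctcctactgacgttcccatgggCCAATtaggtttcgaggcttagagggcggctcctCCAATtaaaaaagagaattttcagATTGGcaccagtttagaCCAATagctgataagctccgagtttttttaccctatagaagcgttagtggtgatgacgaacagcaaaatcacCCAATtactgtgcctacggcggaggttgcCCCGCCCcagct
Cox6a1: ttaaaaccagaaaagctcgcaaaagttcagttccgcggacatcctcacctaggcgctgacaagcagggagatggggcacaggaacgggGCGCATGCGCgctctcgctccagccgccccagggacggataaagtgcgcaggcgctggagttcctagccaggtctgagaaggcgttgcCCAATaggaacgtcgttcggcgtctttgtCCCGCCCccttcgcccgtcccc

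RefSeq promoters were found for 69 of the 82 members, and 7 words were searched on both strands in windows of 250 bases before to 50 bases after each start. A base could count in more than 1 word. The NRF1 palindrome (GCGC, AT and GCGC in a row) stood in 5 of 69 member windows (7.25%) and in 0.977% of all 27025 windows. The YY1 word AAGATGGCG stood in 10.1% of member windows and 1.49% of all windows, and the GABPA word CCGGAAG in 21.7% and 9.12%. The remaining words were more alike in the members and in all windows: the hypoxia response core ACGTG at 27.5% and 19.7%, the SP1 word GGGCGGG at 34.8% and 25.8%, the NFY word CCAAT at 44.9% and 37.9%, and TATAAA at 10.1% and 14.2%. The 5 members with the NRF1 word were Atp5g2, Atp5k, Cox6a1, Ndufa11 and Uqcrc1. Atp5b held 5 NFY words before its start, and the Ndufa4 window held none of the 7 words. These are matches of letters and say nothing on binding.

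The 1504 cells held 100229 to 609242 reads each, with a median of 240178. Levels are in CPM, from the sum of a gene's reads over all cells in a set or class, scaled to the sum of all reads there. Clustering without the members and the related gene lists gave 13 clusters, of which 8 could be named from markers, forming 7 classes: general capillary-like and aerocyte-like endothelium, lymphatic-like endothelium, and pericyte-like, smooth muscle-like, fibroblast-like and chondrocyte- or perichondrial-like cells. Clusters 3, 8 and 11 stayed unnamed, and clusters 9 and 10 were rich in epithelial and leukocyte markers (158803 and 53110.3 CPM over the 11 epithelial markers). Cldn5 and Pdgfrb followed the sort: Cldn5, a tight junction gene, was at 9272 to 13219 CPM in the EC sets and 9.42 to 64.8 CPM in the Mural sets, and Pdgfrb, a growth factor receptor of mural cells, at 0.121 to 3.37 CPM against 374 to 1661 CPM. Cspg4, the gene of NG2, was at 56.3 to 106 CPM in the EC sets, 543 CPM in Mural1, 405 CPM in Mural2 and 42.6 CPM in Mural3, which was below every EC set. The 13 subunits encoded by mitochondrial DNA had no row in the matrix and are not analysed here.

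Summed over all cells, the 82 members took 7668 CPM. Compared per kb of transcript, the most abundant member was Cox4i1, the ubiquitous form of a regulatory subunit of complex IV, at 439.8 CPM per kb, followed by Atp5b, the catalytic beta subunit of ATP synthase, at 400.9 CPM per kb. Cox6a1 and Cox6b1, small accessory subunits of complex IV, stood at 267.4 and 238.9 CPM per kb. In complex I the highest levels per kb were those of Ndufa4 (230.7) and Ndufb9 (222.7), in complex II those of Sdhb (155.9) and Sdha (102.9), which hold the iron-sulfur clusters and the flavin, and in complex III those of Uqcrh (212.5) and Uqcr10 (120.7). In complex V, Atp5j, a stalk subunit, came next to Atp5b with 231.2 CPM per kb.

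At the other end, 67 members reached 20 CPM over all cells, 15 did not, and 10 stayed below 5 CPM. Ndufs5, a small complex I subunit, had 7 reads in all. Some low members share sequence with other genes. For Atp5g2, one of the genes of the c ring of ATP synthase, 87.4% of the 50-base words of its transcript occur in another annotated gene, for Atp5l 84.8%, for Cox7c 53.0%, for Ndufb4 37.0% and for Ndufs5 31.1%. Their levels (0.401, 1.66, 3.18, 7.32 and 0.0178 CPM) may depend on how reads with several matches were handled, which was not tested, and are uncertain. The same caution holds for members at higher levels: 15 in all had at least 25% of their words in another gene, among them Ndufs3 (39.7%), Atp5o (34.0%), Cox5a (32.0%), Ndufa13 (28.5%) and Ndufa12 (26.2%), whose values are given below. Cox8b, Cox8c, Cox7a1 and Cox7b2, forms known from heart and skeletal muscle or from testis, had no shared 50-base words and stood at 0.371, 0.401, 0.462 and 0.373 CPM. Cox6a2, the muscle form of Cox6a1, stood at 1.99 CPM, and Atp5g1, another c-ring gene, at 4.53 CPM. The other members below 20 CPM were Cox6b2, Atp5s, Atp5k and Ndufc1, at 8.74, 12.5, 15.8 and 17.2 CPM.

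Between column sets the members varied little. Their summed level was 8933 CPM in EC1, 7625 CPM in EC2 and 7892 CPM in EC3, against 7086 CPM in Mural1, 8425 CPM in Mural2 and 6949 CPM in Mural3, so that the EC and Mural sets overlapped. For the 67 members with a mean of at least 20 CPM over the sets, the highest of the EC sets exceeded the lowest by a median of 1.41-fold (1.57-fold over all genes at that level) and the highest of the Mural sets by 1.34-fold (1.59-fold over all genes). The largest such ratio was 2.85-fold among the EC sets and 2.00-fold among the Mural sets. EC1 was the highest EC set for 45 of the 67 members and Mural2 the highest Mural set for 45, where the same held for 34.0% and 38.1% of all 8031 genes. Mural2 also had the most doublet-like cells (26.6%) and 63 of the 84 cells of the epithelial-rich cluster 9, and their part in this was not tested.

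**Figure D1:**
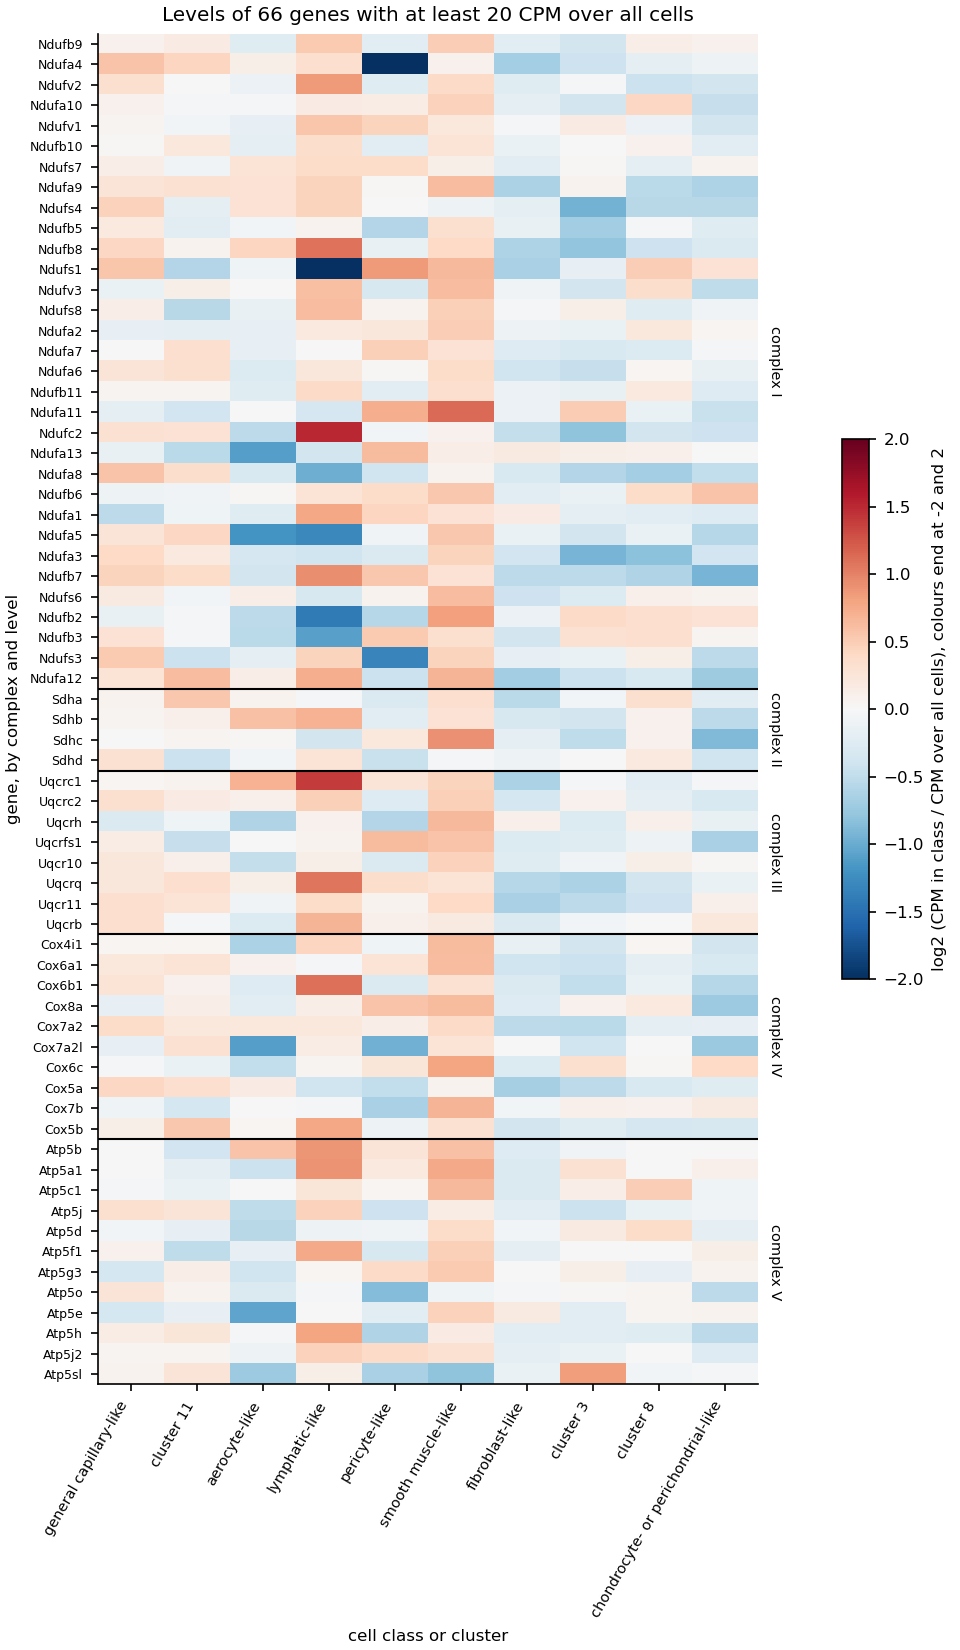
Level of 66 of the 67 members with at least 20 CPM (rows, grouped by complex) in 10 cell classes and unnamed clusters (columns), as the log2 ratio of its CPM there to its CPM over all cells, with colours ending at -2 and 2. The darkest blue cells are Ndufa4 in pericyte-like cells (19.2 CPM) and Ndufs1 in lymphatic-like cells (12.5 CPM). Red prevails in the smooth muscle-like and lymphatic-like columns, which are highest for 25 of the 67 members each. That count was not made over all genes.

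Most members overlapped between the endothelial and the mural sets, and single members did not. Cox5a, a complex IV subunit at the matrix side, stood at 100, 73.7 and 102 CPM in EC1 to EC3 and at 58.8, 70.0 and 53.5 CPM in Mural1 to Mural3. Ndufa4 stood at 224, 158 and 195 CPM against 107, 104 and 105 CPM. Ndufa8, an intermembrane-space subunit of complex I, stood at 80.5, 87.5 and 67.0 CPM against 42.1, 52.8 and 51.9 CPM. In these members every EC set was above every Mural set. This held for 10 of the 67 members, while 30.4% of all 8031 genes at that level had all EC sets higher. The others were Cox5b, Ndufa12, Ndufb7, Ndufb8, Ndufs3, Ndufs4 and Uqcrq, named here after their values were seen. All EC sets were lower for 2 members, Cox7b and Ndufa13, against 19.1% of all genes, and 55 overlapped. Both shares of the members were below the background.

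A gene was called different between 2 populations when the higher level was at least 20 CPM with a read in at least 25% of its cells after thinning each cell to 50000 reads, and the fold was at least 2. Between Cldn5-eGFP cells and Mural1 with Mural2, 0 members were called higher and 0 lower, where 7.83% of the 8114 genes with a mean of at least 20 CPM were called higher and 12.8% lower. The member that came nearest was Ndufa4, at 191 CPM against 105 CPM. In the other direction it was Ndufa13, a complex I subunit also known as GRIM-19, at 50.4 CPM against 77.2 CPM. The median member differed by 0.12 on the log2 scale, next to 0.14 for all genes. The summed level was 8113 CPM against 7915 CPM, a ratio of 1.03 whose direction turned when EC1 or Mural1 was left out.

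Against Mural3, 0 members were higher in Cldn5-eGFP cells (10.7% of all genes) and 1 was lower (13.1% of all genes). That member was Cox6b2, known as the testis form of Cox6b1, at 1.16 CPM against 20.4 CPM, a 17.6-fold difference (counting interval 15.2 to 20.5). Cox6b2 was also the 1 member called between the Mural sets: it stood at 5.42 CPM in Mural1 with Mural2 and was 3.76-fold higher in Mural3 (3.42 to 4.14). There 0 members were higher in Mural1 with Mural2, against 7.26% and 3.02% of all genes in the respective directions. These shares cover only genes with a mean of at least 20 CPM, which Cox6b2 did not reach in either comparison. The Mural3 level of Cox6b2 lies just above the 20 CPM limit, and with each cell weighted equally it fell below it and neither call was made. The median member differed by 0.19 from Mural3 for Cldn5-eGFP cells and by 0.13 for Mural1 with Mural2, both less than the all-gene medians of 0.37 and 0.19. The summed ratios of 1.17 and 1.14 in favour of the first population turned below 1 under TMM and median-ratio scaling.

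Classes of cells differed more than sorted populations. The members summed to 10953 CPM in lymphatic-like cells (22 cells), 10621 CPM in smooth muscle-like cells (78 cells), 8328 CPM in general capillary-like cells (399 cells), 7822 CPM in pericyte-like cells (68 cells), 7494 CPM in aerocyte-like cells (79 cells), 6852 CPM in chondrocyte- or perichondrial-like cells (44 cells) and 6426 CPM in fibroblast-like cells (304 cells). By column set, smooth muscle-like cells had 10088 and 10773 CPM in Mural1 and Mural2, lymphatic-like cells 9545 to 12118 CPM in EC1 to EC3, general capillary-like cells 7730 to 9095 CPM, pericyte-like cells 6996 and 8429 CPM, aerocyte-like cells 7235 to 7797 CPM and fibroblast-like cells 5957 to 6487 CPM in Mural1 to Mural3. Lymphatic- and smooth muscle-like cells thus overlapped each other and lay above every set of the other named classes. General capillary-, pericyte- and aerocyte-like cells overlapped one another, and the chondrocyte- or perichondrial-like cells (6853 CPM in Mural1 and 6845 CPM in Mural2) lay between them and the fibroblast-like cells. In single cells the members ranged from 421.9 CPM to 22830 CPM, both in general capillary-like cells.

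**Figure D2:**
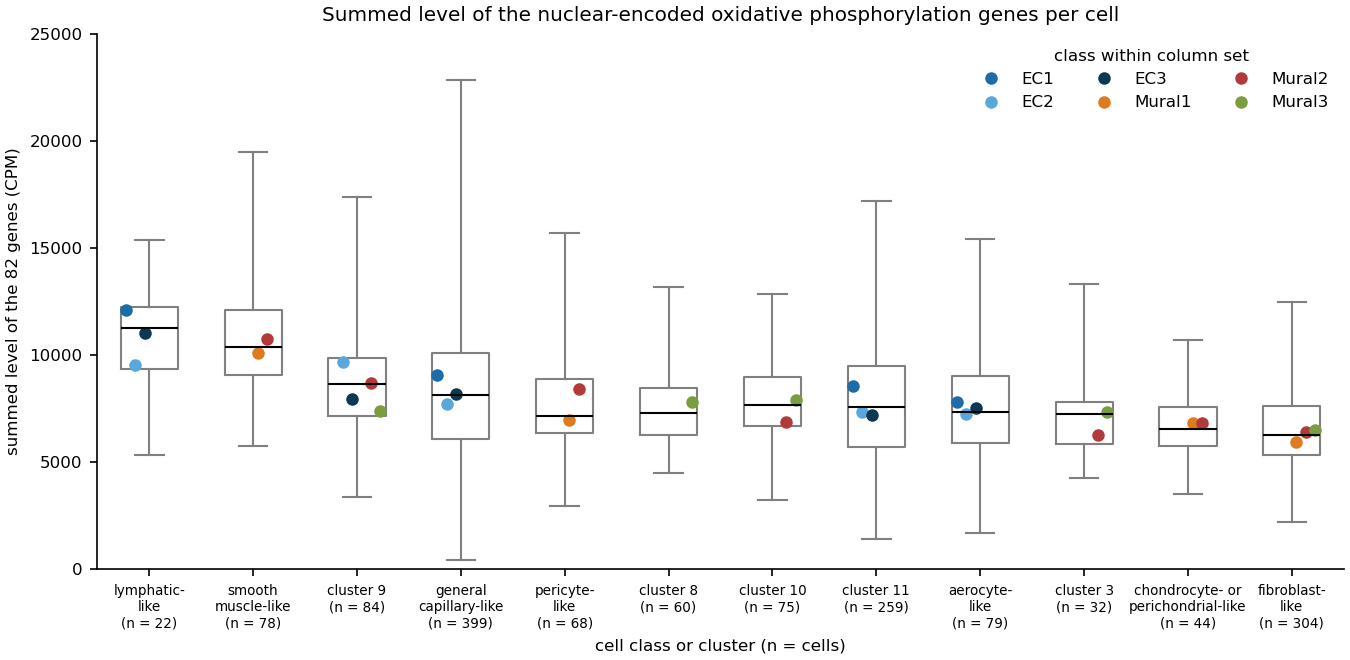
Summed level of the 82 members in CPM by cell class or cluster, where boxes show the quartiles and median over single cells, whiskers the lowest and highest cell, and points the cells of the class pooled within a column set (at least 5 cells). The points of lymphatic-like (9545 to 12118 CPM) and smooth muscle-like cells (10088 and 10773 CPM) lie above those of the other named classes, and those of fibroblast-like cells are lowest (5957 to 6487 CPM).

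Counted over the 10 classes and unnamed clusters without the epithelial-rich ones, 25 of the 67 members were highest in smooth muscle-like cells, 25 in lymphatic-like cells, 7 in general capillary-like cells and 5 in pericyte-like cells. The lowest level fell in chondrocyte- or perichondrial-like cells for 14 members and in fibroblast-like cells and cluster 3 for 12 each. It fell in aerocyte-like cells for 11 and in lymphatic-like cells, a class of 22 cells, for 5. Neither count was made over all genes, so no background share stands beside them. The median member varied 2.39-fold from the lowest class to the highest, with extremes of 1.49-fold and 12.3-fold. The last is Ndufs1, the largest iron-sulfur subunit of complex I, at 12.5 CPM in lymphatic-like cells and 153 CPM in pericyte-like cells. Its pericyte-like level was 219 CPM in Mural1 and 105 CPM in Mural2. In the 22 lymphatic-like cells, Uqcrc1, a core subunit of complex III, reached 512 CPM, against 201 CPM in general capillary-like cells. This lymphatic-like value was picked after it was seen and rests on 6 to 9 cells per column set.

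Smooth muscle-like cells had more reads of all 5 complexes than fibroblast-like cells. The summed ratio was 1.59 for complex I, 1.68 for complex II, 1.76 for complex III, 1.70 for complex IV and 1.66 for complex V, and 1.65 for all members (counting interval 1.65 to 1.66). In the same column set it was 1.69 in Mural1 and 1.68 in Mural2. Of the 66 members with a mean of at least 20 CPM, 64 lay above 0, and 59 were higher in both Mural1 and Mural2, against 43.3% of all 7426 genes. The 2 below 0 were Atp5o and Ndufa13, with log2 differences of -0.06 and -0.05, and Atp5sl, whose mean was under 20 CPM, differed by -0.67. The lower side in both sets held 1 member, against 24.2% of all genes.

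By the rule, 0 members were lower in smooth muscle-like than in fibroblast-like cells (9.66% of all genes). Called higher were 12 of the 66 members, a share close to that of all genes (15.9%). In complex I they were Ndufa12 at 46.0 against 17.8 CPM (2.58-fold, 2.39 to 2.79), Ndufs1 at 133 against 54.2 CPM (2.45-fold), Ndufa9, which sits near the quinone site, at 158 against 66.1 CPM (2.39-fold), Ndufa11 at 157 against 65.9 CPM (2.38-fold), Ndufs6 (2.05-fold) and Ndufb8 (2.04-fold). In complex II it was Sdhc, a membrane anchor, at 183 against 85.8 CPM (2.13-fold). In complex III they were Uqcrc1 at 266 against 126 CPM (2.11-fold) and Uqcr11 (2.06-fold). In complex IV they were Cox6c (2.09-fold) and Cox6a1 at 234 against 116 CPM (2.03-fold). In complex V it was Atp5a1, the alpha subunit, at 863 against 419 CPM (2.06-fold, 2.03 to 2.09), with 837 and 872 CPM in smooth muscle-like cells of Mural1 and Mural2 and 410 to 458 CPM in fibroblast-like cells of the Mural sets.

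The median member differed by 0.69 on the log2 scale and the median of all genes by 0.29, so the members lay 0.40 above the median gene. TMM factors shift this comparison by -0.42, and under TMM or median-ratio scaling 0 of the 12 members passed, with a summed log2 difference of 0.31 or 0.33 still above 0. Smooth muscle-like cells also carried epithelial reads: all 11 epithelial markers were found, at 14035 CPM summed against 182 CPM in fibroblast-like cells, and all 9 leukocyte markers, at 2690.1 CPM against 43.2 CPM. In the 39 smooth muscle-like cells with fewer of these reads (98.4 CPM) the members summed to 10475 CPM, and in the other 39 (30227 CPM) to 10790 CPM. With the first 39 cells alone, 12 members were called higher than in fibroblast-like cells, of which 11 were among the 12 above, and with the other 39 cells alone 9 were, of which 5 were among the 12.

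Pericyte-like cells, which share the mural lineage with smooth muscle, had lower summed levels. The ratio to smooth muscle-like cells was 0.737 (0.731 to 0.742) over all members, 0.782 for complex I, 0.665 for complex II, 0.757 for complex III, 0.679 for complex IV and 0.729 for complex V. It was 0.694 in Mural1 and 0.782 in Mural2. Of 68 members, 55 lay below 0 and 13 above, with a median log2 difference of -0.48 where the median of all genes was 0.17. In both column sets 45 of the 68 were lower (28.7% of all genes) and 7 higher (37.9% of all genes). The 7 were all in complex I, where 20 of 34 members were lower in both sets. Complexes II to V had none higher in both.

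Called higher in pericyte-like than in smooth muscle-like cells were 0 members (13.2% of all genes). Called lower were 7 of the 68, a share below that of all genes (14.4%). In complex I, Ndufa4 was at 19.2 against 149 CPM, Ndufs3 at 13.5 against 46.3 CPM (0.292-fold), Ndufb2 at 26.7 against 70.2 CPM (0.380-fold) and Ndufa12 at 21.3 against 46.0 CPM (0.463-fold). In complex III it was Uqcrh, the hinge protein beside cytochrome c, at 77.1 against 181 CPM (0.425-fold). In complex IV they were Cox7b at 36.9 against 92.9 CPM (0.397-fold) and Cox7a2l, a factor of supercomplex assembly, at 40.5 against 95.1 CPM (0.425-fold). Without Mural1, Cox7b and Uqcrh no longer passed. Among the members on the other side, Ndufa13 stood at 103 against 72.9 CPM, Ndufb7 at 67.3 against 56.6 CPM and Ndufs1 at 153 against 133 CPM, all below 2-fold. Pericyte-like cells had a median of 148190 reads per cell and smooth muscle-like cells 268798. The part of this depth gap in the levels was not tested. Over the 68 pericyte-like cells, Spearman's rho of the summed level with reads per cell was 0.21, given as a description.

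**Figure D3:**
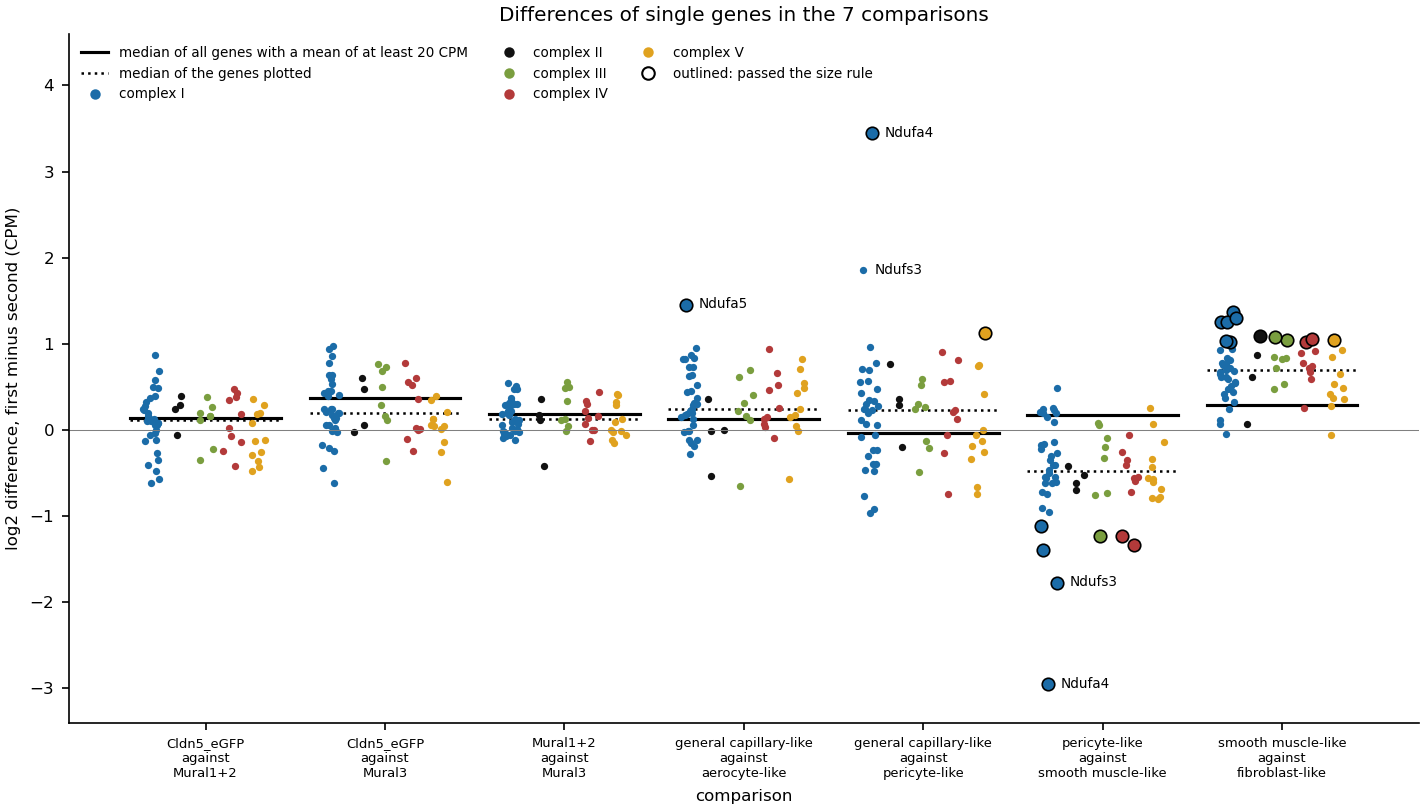
Log2 difference in CPM, first population minus second, of every member with a mean of at least 20 CPM in the 7 comparisons, coloured by complex, with outlined points for members past the rule of size, a solid line for the median of all genes at that level and a dotted line for the median of the members plotted. Cox6b2 is not plotted because its mean is below that limit. The dotted line lies below the solid one in pericyte-like against smooth muscle-like cells (-0.48 and 0.17) and above it in smooth muscle-like against fibroblast-like cells (0.69 and 0.29), and Ndufa4 is the outermost point in both pericyte comparisons.

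Ndufa4, on the minus strand at chr6:11900292-11907497 in GRCm38, was the member that set pericyte-like cells apart most. Its levels over the classes ran, from low to high, pericyte-like 19.2 CPM, fibroblast-like 88.3 CPM, cluster 3 106 CPM, cluster 8 125 CPM, chondrocyte- or perichondrial-like 131 CPM, smooth muscle-like 149 CPM, aerocyte-like 152 CPM, lymphatic-like 178 CPM, cluster 11 189 CPM and general capillary-like 209 CPM. By column set the pericyte-like cells had 13.8 CPM in Mural1 and 23.1 CPM in Mural2. The next lowest value of any class in a set was 60.9 CPM, in 7 cells of cluster 3. The endothelial classes overlapped between sets, with general capillary-like cells at 166 to 235 CPM, aerocyte-like cells at 108 to 183 CPM and lymphatic-like cells at 83.1 to 231 CPM. After thinning, Ndufa4 had a read in 13.2% of pericyte-like cells (6.23% to 23.6%), 93.6% of smooth muscle-like cells and 55.1% of general capillary-like cells.

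Compared with smooth muscle-like cells the pericyte-like level was 7.75-fold lower (6.77 to 8.91), and compared with general capillary-like cells 10.9-fold lower (9.55 to 12.5). No shared 50-base words were found for Ndufa4. In pericyte-like cells its paralog Ndufa4l2, a hypoxia-responsive gene, was at 367 CPM, Cox4i2, known as the lung form of Cox4i1, at 1482 CPM and Higd1b, a mitochondrial membrane gene, at 781 CPM, and Cox4i2 and Higd1b were among the markers that named the class. Per kb, Ndufa4 made up 7.40% of the sum with Ndufa4l2 in pericyte-like cells, 88.0% in smooth muscle-like cells, 82.9% in fibroblast-like cells and 100% in general capillary-like cells. Of the 68 pericyte-like cells after thinning, 53 had reads of Ndufa4l2 alone, 8 of both genes, 1 of Ndufa4 alone and 6 of neither. Of the 78 smooth muscle-like cells, 52 had reads of Ndufa4 alone, 21 of both, 2 of Ndufa4l2 alone and 3 of neither.

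Cox4i1 itself did not share this pattern. It stood at 316 CPM in pericyte-like cells, 520 CPM in smooth muscle-like cells, 303 CPM in fibroblast-like cells and 345 CPM in general capillary-like cells, and passed the rule in none of these comparisons. Per kb, Cox4i1 made up 17.0% of the pair with Cox4i2 in pericyte-like cells, against 91.4% in smooth muscle-like cells.

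**Figure D4:**
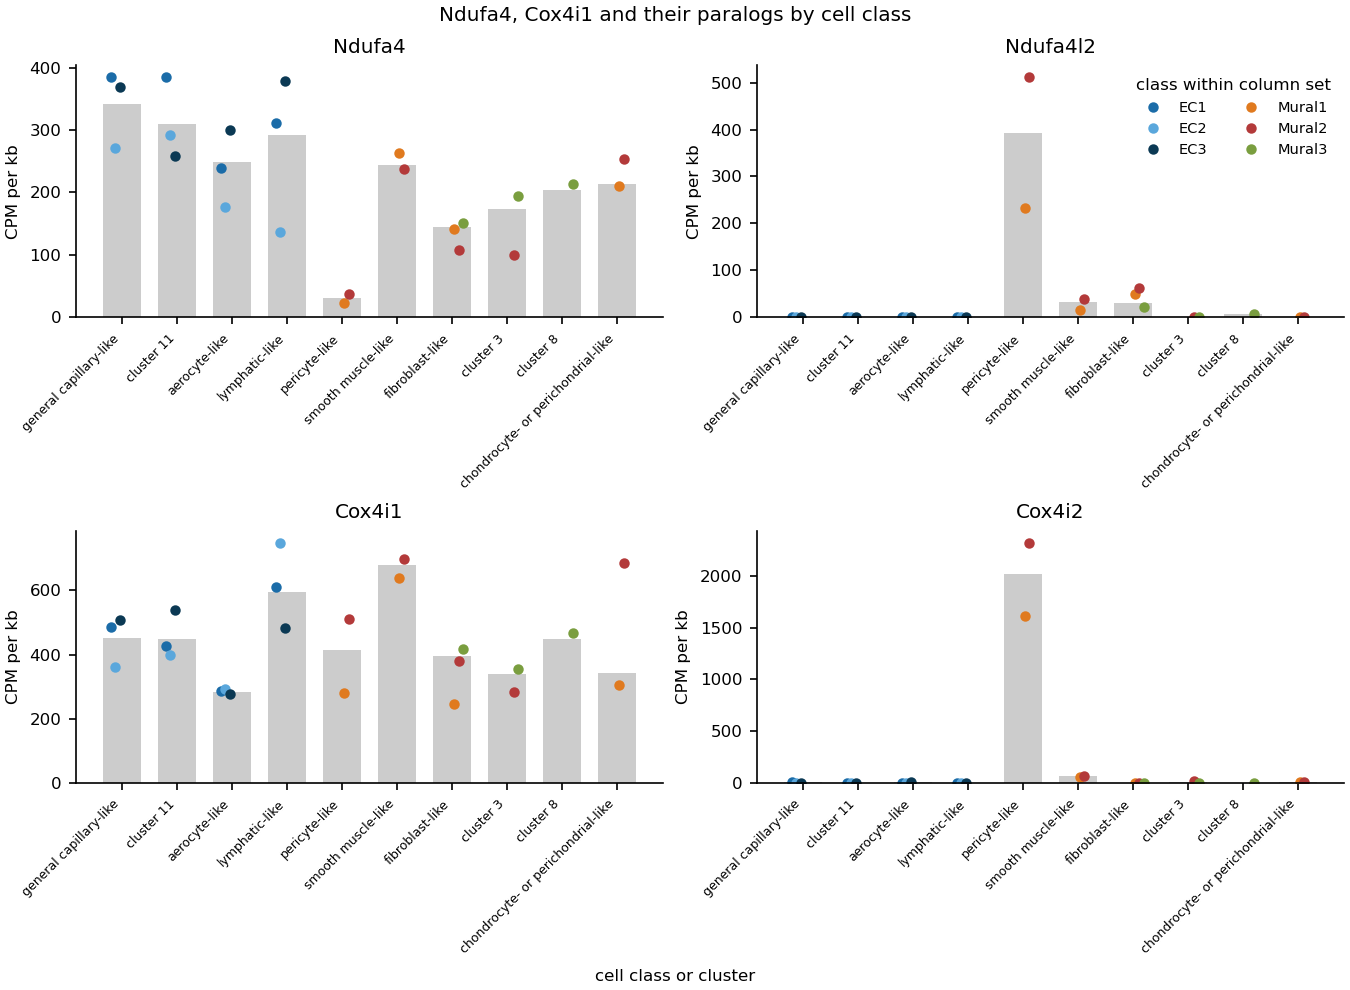
Level of Ndufa4, Ndufa4l2, Cox4i1 and Cox4i2 in CPM per kb of transcript on linear axes that differ between panels, by cell class or cluster, with bars for all cells of a class and points for the class within a column set. In pericyte-like cells the bar of Ndufa4 is the lowest of its panel (31.4 CPM per kb), while those of Ndufa4l2 (393.4 CPM per kb) and Cox4i2 (2021 CPM per kb) are the highest of theirs, and the bars of Cox4i1 run from 284.5 to 680.04 CPM per kb.

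Between general capillary-like and pericyte-like cells, 2 members were called higher in the first (7.21% of all genes) and 0 lower (11.9% of all genes). They were Ndufa4 and Atp5o, the oligomycin sensitivity-conferring subunit of ATP synthase, at 112 against 50.9 CPM (2.19-fold, 2.01 to 2.38). The call of Atp5o was lost without EC1 or without Mural1, and 7 members passed without Mural2. Ndufs3, at 48.8 against 13.5 CPM, had a larger fold of 3.61 but a read in 18.0% of general capillary-like cells and so did not pass. Ndufa1, Ndufa11 and Cox8a pointed the other way, at 34.4 against 67.1, 62.7 against 118 and 87.4 against 147 CPM. The summed ratio was 1.06 and turned below 1 without Mural1.

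The 2 capillary classes, the general capillary-like cells and the aerocyte-like cells that line the gas exchange surface, differed in 1 member. Ndufa5, a matrix-arm subunit of complex I, was at 56.7 against 20.7 CPM (2.74-fold, 2.50 to 3.00) and had a read in 25.1% of general capillary-like cells, just past the limit. It was the 1 member called higher (4.4% of all genes) and 0 were lower (4.73% of all genes). Its call was lost without EC1, EC3 or Mural1, and the number of members called higher was 3, 2, 2 and 0 without EC1, EC2, EC3 and Mural1. Of the 399 general capillary-like cells, 4 lay in Mural1, which held no aerocyte-like cells. The aerocyte-like side had the higher levels for Atp5b (1136 against 766 CPM), Uqcrc1 (316 against 201 CPM) and Sdhb (267 against 185 CPM), all below 2-fold. By complex the ratio was 1.24 for complex I and 1.29 for complex IV, and 0.920, 0.990 and 1.00 for complexes II, III and V. Over EC1, EC2 and EC3 it was 1.17, 1.07 and 1.09, and 22 of 66 members were higher in all 3 (26.2% of all genes) and 2 lower (15.4% of all genes). The summed direction turned under TMM and median-ratio scaling, which shift this comparison by -0.30 and -0.36.

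Several subunits of complex IV come in tissue forms, and in these cells 1 form held nearly all reads of most pairs. Per kb and over all cells, Cox6a1 made up 98.9% of its pair with Cox6a2, and Cox7b 98.8% with Cox7b2. Cox8a made up 98.9% with Cox8b and Cox8c, and Atp5g3 98.8% of the c-ring genes of ATP synthase, where Atp5g2 is uncertain. The Atp5g1 transcript used was 4715 bases long, against 723 bases for Atp5g3, and a shorter one would lower the Atp5g3 share. Cox7a2 held 65.3% and Cox7a2l 34.2% of their family, and Cox7a1 0.546%. Cox6a2 reached 21.7 CPM in the epithelial-rich cluster 9, where it made up 10.1% of its pair, 10.5 CPM in cluster 10 and 4.76 CPM in smooth muscle-like cells. It had 0 CPM in pericyte-like, aerocyte-like and lymphatic-like cells.

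Cox6b2, on the minus strand at chr7:4751792-4753094 in GRCm38, was an exception to this. It stood at 41.8 CPM in the unnamed cluster 8, 26.3 CPM in the unnamed cluster 3 and 14.8 CPM in fibroblast-like cells, and in each of these the fibroblast list had the highest share of marker and cell pairs with reads. That list was also highest in chondrocyte- or perichondrial-like cells (73.4%) and in the epithelial-rich cluster 10 (90.5%), so this trait is not particular to them. In the other classes Cox6b2 stood at 11.5 CPM in lymphatic-like cells, 5.66 CPM in pericyte-like cells, 3.04 CPM in smooth muscle-like cells, 1.72 CPM in chondrocyte- or perichondrial-like cells and 0.864 CPM in general capillary-like cells. Aerocyte-like cells had 0 reads in 79 cells, which allows a share of cells with a read of up to 3.80% (3 of 79) and sets no limit on the share that express the gene. Within fibroblast-like cells it was 4.41 CPM in Mural1, 11.9 CPM in Mural2 and 16.5 CPM in Mural3, so the sets differed inside the class. The class joins clusters 6 and 7, and 29 of its 33 Mural1 cells and 35 of its 39 Mural2 cells lay in cluster 6, but 184 of its 232 Mural3 cells in cluster 7. Within cluster 6, Cox6b2 was at 4.68 CPM in Mural1, 8.14 CPM in Mural2 and 22.1 CPM in Mural3. Within cluster 7 it was at 2.38 CPM in Mural1 (4 cells), 67.9 CPM in Mural2 (4 cells) and 15.0 CPM in Mural3. Of the 60 cells of cluster 8, 56 were in Mural3, as were 22 of the 32 cells of cluster 3 and 232 of the 304 fibroblast-like cells, and the part of this mix in the Mural3 level was not tested. After thinning it had a read in 53.3% of the cells of cluster 8, 31.3% of cluster 3 and 24.0% of fibroblast-like cells. Per kb it made up 24.7%, 20.9% and 11.5% of the pair with Cox6b1 there, against 1.73% in smooth muscle-like cells. Cox6b1 itself stood at 135 CPM in cluster 8, 105 CPM in cluster 3 and 121 CPM in fibroblast-like cells.

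**Figure D5:**
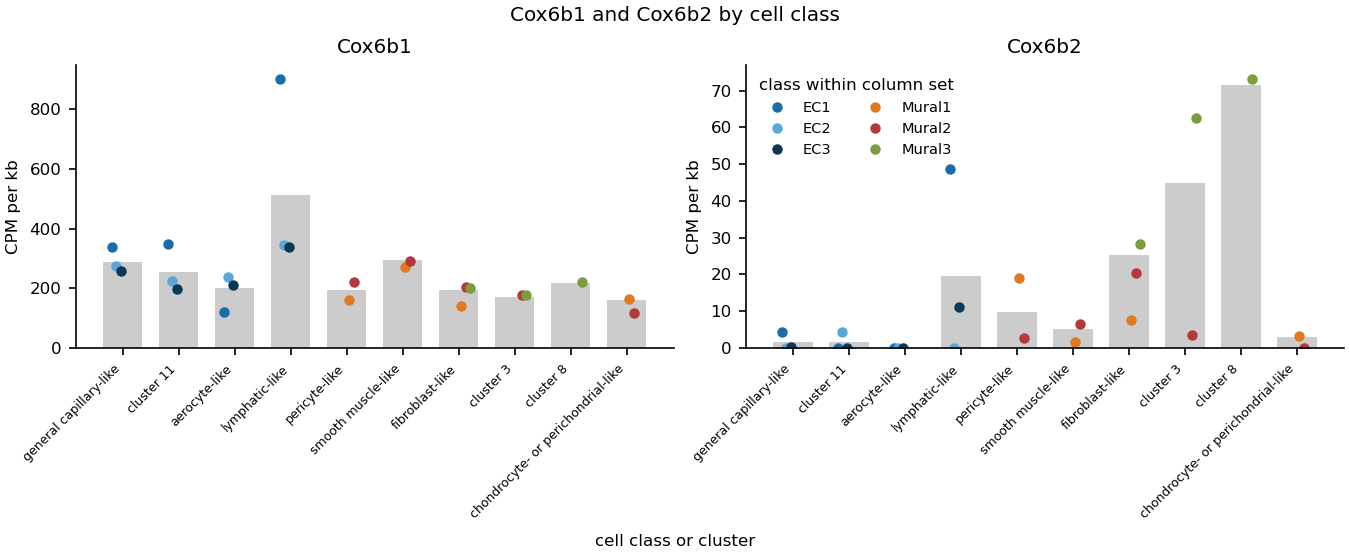
Level of Cox6b1 and Cox6b2 in CPM per kb of transcript on linear axes that differ between panels, by cell class or cluster, with bars for all cells of a class and points for the class within a column set. The bar of Cox6b2 is highest in cluster 8 (71.4 CPM per kb) and at 0 in aerocyte-like cells, while Cox6b1 has reads in every class.

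Other mitochondrial and metabolic genes gave a frame for these differences. In pericyte-like against smooth muscle-like cells, where 14.4% of all genes with a mean of at least 20 CPM were called lower, glycolysis and lactate genes were lower for 10 of 19, among them Tpi1 (74.0 against 349 CPM), Ldhb (14.6 against 128 CPM) and Pfkm (6.25 against 65.4 CPM). The tricarboxylic acid cycle was lower for 4 of 14 (Idh2, Idh3a, Idh3b and Idh3g). Pyruvate dehydrogenase and its kinases were lower for 3 of 10, with Pdk4 at 0.676 against 109 CPM, and the mitochondrial ribosome for 8 of 77. The last share lay below that of all genes, though list counts take genes at any level and the all-gene share does not. The cytosolic ribosome list was lower for 29 of 96, counting 10 ribosomal S6 kinase genes that its name pattern also takes. None of these lists had a gene called higher there. Assembly factors of the complexes had 1 of 41 lower and a summed ratio of 1.02, next to 0.737 for the members.

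In smooth muscle-like against fibroblast-like cells, where 15.9% of all genes were called higher, higher calls came to 8 of 19 for glycolysis and lactate, 5 of 14 for the tricarboxylic acid cycle with Cs, citrate synthase, at 293 against 113 CPM, 8 of 77 for the mitochondrial ribosome, 3 of 41 for assembly factors and 2 of 14 for the 20S proteasome. The shares of the last 3 lists lay below that of all genes, though list counts again take genes at any level. The summed ratio was 1.92 for glycolysis and lactate, 1.81 for the tricarboxylic acid cycle, 1.39 for the mitochondrial ribosome and 0.961 for the cytosolic ribosome, with 1.65 for the members. In Cldn5-eGFP cells against Mural1 with Mural2, where no member was called, the lower genes of these lists included Ldhb (9.42 against 83.3 CPM), Tpi1 (73.2 against 176 CPM) and Gpx1, a glutathione peroxidase (126 against 641 CPM). In that comparison 12.8% of all genes were called lower and 7.83% higher. Glycolysis and lactate had 2 of 19 genes lower and 0 higher, a share below that of all genes. The genes of all lists called higher there were the hypoxia response genes Epas1 (5051 against 632.1 CPM) and Vegfa (219 against 30.8 CPM), Cpt1a of fatty acid oxidation (313 against 104 CPM), Ucp2 (619.6 against 243 CPM) and Rps4l (96.6 against 43.8 CPM). Cpt1a does not stand for its list. Of 16 fatty acid oxidation genes 1 was called higher and 2 lower. Of the 13 with a mean of at least 20 CPM, 9 lay below 0.

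Within classes the summed level of the members varied from cell to cell together with other housekeeping lists to differing degrees. As a description, Spearman's rho with the mitochondrial ribosome was 0.49 over 78 smooth muscle-like cells, 0.37 over 304 fibroblast-like cells and 0.14 over 399 general capillary-like cells, where both sums share the cell's total. With the cytosolic ribosome it was 0.47, 0.39 and 0.14, and with the 20S proteasome 0.39, 0.25 and 0.11. With glycolysis and lactate it was 0.24, 0.19 and 0.07. The tricarboxylic acid cycle gave lower values in the same classes, 0.04, 0.11 and 0.05. With reads per cell, rho was -0.09, -0.15 and 0.04, and it was 0.11 over 79 aerocyte-like cells and -0.19 over the 259 cells of cluster 11.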

How the data were processed

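The authors aligned SMART-seq2 reads with STAR 2.4.2a to mm10, per the submitters' processing notes, and deposited read counts per gene and a score table that is the same counts times 500000 over each cell's total, rounded. How reads with several matches were counted is not given in the sources used here. The members and lists were chosen with earlier results of these data known.

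Reads were summed over cells and divided by total reads. Clusters (scanpy 1.11.5, 2000 genes, 30 components, Leiden resolution 1, python 3.11.15) were made without 446 genes, members and lists included, and named from marker lists. Doublet-like cells (102 of 1504) stayed in and were left out in an alternative. After thinning they had reads of at least 5 endothelial markers and of at least 5 pericyte, smooth muscle or fibroblast markers. Epithelial and leukocyte markers were not used for this. Exact Poisson, conditional ratio and Clopper-Pearson intervals were computed with scipy 1.17.1, and a side under 3 reads was set to 3 reads. PCR reads without identifiers are not independent molecules. No test was possible with 1 sample per population. The rule of size was tested on simulated data. Transcript lengths and positions come from GENCODE (GRCm38), where all 82 members were found.

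Genes named are members past the rule, the 2 highest per kb in each complex, the 2 with the largest difference in each direction per complex and comparison, the isoform pairs, and up to 3 genes of each list. Alternatives were TMM (edgeR 4.0.16, R 4.3.3) and median-ratio scaling, the score table, means over cells, no filter, a fold of 1.5, other cluster resolutions, no mixed or doublet-like cells, each column set left out, and the class limits of clusters 3, 8 and 11 and of epithelial reads, added after seeing the data. Every cell column was used. The values of 1 member are not reported here, though it stays in all sums and counts.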

Additional observations from a re-analysis of the deposited data

How the results depend on the processing

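The calls have no replicate error, depth per cell limits the shares of cells, and all summed differences changed size with the scaling, and those of A to E below also changed sign under a scaling or without a column set. The members called in a comparison kept their direction there, with 214 of their values under the alternatives past the rule and 65 no longer past it. They were picked for a fold of at least 2 in these same reads, so keeping the direction is no independent support. Members named without a call were not followed. No paired analysis was possible because no test was made with 1 sample per population and the numbers of the column sets are not given as replicates. Ratios within a column set stand beside the class comparisons. The total without mitochondrial genes was not run, since 0 of 13 such genes were measured. The cause was not tested for any change below.

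The comparisons are given as Cldn5-eGFP against Mural1 with Mural2 (A), Cldn5-eGFP against Mural3 (B), Mural1 with Mural2 against Mural3 (C), general capillary-like against aerocyte-like (D), general capillary-like against pericyte-like (E), pericyte-like against smooth muscle-like (F) and smooth muscle-like against fibroblast-like (G). The summed log2 differences were 0.0357 (A), 0.2235 (B), 0.1879 (C), 0.1522 (D), 0.0904 (E), -0.4412 (F) and 0.7248 (G). With TMM they were 0.0063 (A), -0.2013 (B), -0.1765 (C), -0.1445 (D), 0.2283 (E), -0.6584 (F) and 0.3064 (G), and with median-ratio scaling 0.0133 (A), -0.2330 (B), -0.2071 (C), -0.2058 (D), 0.1963 (E), -0.6384 (F) and 0.3315 (G), so B, C and D changed sign. With means over cells they were 0.0206 (A), 0.2085 (B), 0.1700 (D), 0.1173 (E) and -0.4805 (F), and with the deposited scores 0.0204 (A), 0.2083 (B), 0.1700 (D), 0.1170 (E) and -0.4805 (F). Without mixed clusters and doublet-like cells they were 0.0730 (A), 0.2516 (B), 0.1786 (C) and 0.1741 (D). At Leiden resolution 0.5 they were 0.1066 (D), 0.0415 (E) and 0.7153 (G), and at resolution 2 they were 0.1203 (D), 0.0449 (E) and 0.7160 (G). The settings added after seeing the data gave 0.1068 (D) and 0.0449 (E) with cluster 11 among general capillary-like cells, -0.4213 (F) and 0.7051 (G) for the smooth muscle-like cells with fewer epithelial reads, and 0.6708 (G) with clusters 3 and 8 among fibroblast-like cells. Leaving out each column set gave -0.0545 to 0.1953 (A, below 0 without EC1, -0.0291, or Mural1), 0.1588 to 0.2699 (B), 0.0282 to 0.2780 (C), 0.0997 to 0.1828 (D), -0.0168 to 0.2505 (E, below 0 without Mural1), -0.5380 to -0.3556 (F) and 0.6604 to 0.7706 (G). Without Mural2, F and G have 17 smooth muscle-like cells, too few for calls, and give the summed value alone.

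The numbers of members called higher moved from 2 to 4 (E) and from 12 to 0 (G) under TMM and under median-ratio scaling, and the numbers called lower from 1 to 3 (B) under both, from 7 to 11 (F) under TMM and from 0 to 1 (D) under median-ratio scaling. Means over cells gave 0 lower (B and C) and 3 (D) and 4 (E) higher, and the deposited scores 0 lower (B and C) and 3 (D) and 5 (E) higher. Without mixed clusters and doublet-like cells 2 (B) and 0 (D) were higher. Without the filter on low values 3 higher and 3 lower (A), 2 and 2 (B), 2 and 2 (C), 5 and 2 (D) and 4 and 2 (E) were found, and 1 lower (G). A fold of 1.5 gave 1 higher and 1 lower (A), 11 and 3 (B), 14 and 1 (D), 10 and 6 (E), 25 lower (F) and 43 higher (G). Resolution 0.5 gave 1 higher (E), and clusters 3 and 8 as fibroblast-like cells 6 higher (G). Leaving out column sets gave 0 to 2 higher (B), 0 to 3 higher and 0 to 1 lower (D), and 2 to 7 higher and 0 to 2 lower (E).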
